A study of Saccharomyces cerevisiae with 22 samples.

Results

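The small ribosomal subunit protein genes of Saccharomyces cerevisiae, RPS0A to RPS31, were taken by their systematic names from every count table of the study. They comprise 56 of the 6696 genes listed and encode 32 proteins, 24 from a pair of near-identical copies (A and B, 48 genes) and 8 from a single gene (such as RPS2, RPS3, RPS13 and RPS31). Rapamycin at 0.2 µM, an inhibitor of the nutrient-sensing kinase complex TORC1 that induces autophagy, was added to cells growing in rich medium (YPD). The labels give X2180-1a as the strain of every sample, while the study's strain list gives X2180-1B for the mutants. In strains labelled rny1Δ atg2Δ and rny1Δ, RNA of isolated vacuoles and of total lysates was sequenced after 3 h of rapamycin (2 libraries per strain and fraction) and in growing cells (1 library each). Both labels name a deletion of RNY1, the gene of the vacuolar ribonuclease that degrades delivered RNA, and the first also one of ATG2, which autophagosome formation requires. In wild-type (WT) cells, ribosome footprints and mRNA from the same lysates were sequenced in growing cells (2 libraries each) and at 1, 2 and 3 h of rapamycin (1 library each).

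The small subunit binds the mRNA, scans it for the start codon and holds the decoding site. Its protein genes are among the most highly transcribed genes of growing yeast, they are activated together through Rap1, Fhl1, Ifh1 and Sfp1, and this activation depends on TORC1. Ribosomes are also known cargo of autophagy, the process in which cytoplasm is enclosed in vesicles and degraded in the vacuole. The study proposes that mRNA bound to ribosomes is taken there with preference. By the annotation of the same genome assembly, 36 of the 56 genes carried an intron (64.3%, against 4.66% of all protein-coding genes), and their coding sequences were short, with a median of 432 nt against 1197 nt for all protein-coding genes.

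The libraries held 535462 to 22097523 counts on genes in the total and vacuole libraries, 2657480 to 20413301 in the footprint libraries and 10361721 to 14917164 in the WT RNA-Seq libraries. The shallowest was vacuole replicate 2 of rapamycin-treated rny1Δ atg2Δ cells, with a median of 19 counts per small subunit gene. ATG2 had 0 to 79 counts in the 6 libraries labelled rny1Δ atg2Δ, against 851 to 1448 in those labelled rny1Δ. RNY1 had 9 to 439 counts in all 12 libraries labelled as lacking it, so those names are used here as labels only. RPS26A had no count in any of these 12 libraries, and its 0 is below 3 counts per library, which allows 0.136 to 5.60 CPM (counts scaled to the library total). The 55 other members were tested there, and all 56 in WT. As these are bulk libraries scaled to their own totals, all values are relative to the other RNAs of a library, and fewer cells and less RNA per cell cannot be told apart. The values also do not give the amount of RNA in a vacuole fraction. By gel, the study found hardly any mRNA in vacuoles of rapamycin-treated atg2Δ cells.

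In both growing WT libraries all 56 genes were among the 500 most abundant mRNAs, counted per length of coding sequence, and 10, 18 and 35 were at 1, 2 and 3 h of rapamycin. Levels are given as TPM, that is, counts per counted codon scaled to the same total over protein-coding genes in every library. The median member had 2065.1 and 1736.7 TPM of footprints, and 2669.6 and 2702 TPM of mRNA. RPS31, whose product is made as a fusion of ubiquitin and a small subunit protein, had the highest mRNA level, 15014 and 12860 TPM (chrXII:498947-499405, build R64). RPS9A, the minor copy of a protein near the decoding region, had the lowest, 273 and 332 TPM. The ubiquitin part of RPS31 is shared with other ubiquitin genes, so that its counts are uncertain.

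In growing cells, footprint levels spanned a smaller range than mRNA levels. Over the 8 single-copy genes, the highest footprint level was 1.78 and 1.74 times the lowest in the 2 growing libraries, against 5.72 and 4.6 times for mRNA. Without RPS31, a comparison added after the values were seen, the ranges were 1.78- and 1.74-fold for footprints and 2.31- and 1.96-fold for mRNA. With copies summed, the 32 proteins spanned 4.63- and 3.59-fold in footprints and 7.31- and 6.68-fold in mRNA. RPS31 had the highest mRNA level of any single gene in both libraries. With copies summed, a pair lay above it in replicate 2, at 13872 TPM against 12860 TPM. The footprints of RPS31, 3094 and 2366 TPM, lay within the range of the other single-copy genes. That range was 2387 to 4242 TPM in replicate 1 and 1701 to 2957 TPM in replicate 2.

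Footprints per mRNA in growing cells, tested as footprint over mRNA counts with edgeR's quasi-likelihood test, had a median log2 value of -0.53 over the members, against 0.08 over 5936 genes. A gene was called where the log2 value was at least 1 in size and the Benjamini-Hochberg adjusted p was under 0.01. By this rule 2 of 56 members were lower and none higher, while 6.64% of all genes were called lower and 3.59% higher. The lowest were RPS31 at -2.38 (SE 0.33, adjusted p = 0.0073) and RPS25A at -1.63 (SE 0.26, adjusted p = 0.00998), the major copy of a head protein. RPS12, a protein of the beak of the head, followed at -1.52 (SE 0.32, adjusted p = 0.020). The highest values were those of the minor copies RPS7B (1.06, SE 0.25, adjusted p = 0.028) and RPS9A (0.90, SE 0.24, adjusted p = 0.039) and of RPS29A (0.71, SE 0.23, adjusted p = 0.060). With a correction for coding length no member was called and the median was -0.01.

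After rapamycin, mRNA of all 56 genes fell within 1 h, and that of 55 was higher again at 3 h than at 1 h. The median level was 2669.6 and 2702 TPM in growing cells, 178 at 1 h, 246 at 2 h and 410 at 3 h. The members' share of all counts moved in the same way, with 8.54% and 8.15% in growing cells, 0.446% at 1 h, 0.593% at 2 h and 0.975% at 3 h. At each time 56 of 56 members were called lower, against 16.3% of all genes at 1 h, 14.5% at 2 h and 15.9% at 3 h. Their median log2 change was -4.87 at 1 h, -4.49 at 2 h and -3.78 at 3 h, and that of all 5927 genes tested was 0.01, 0.02 and -0.01. Each time point was 1 library, and the spread came from the 2 growing libraries alone. In a fit of all 10 WT libraries, whose spread includes that of the footprints, 56, 56 and 0 members were called lower at 1, 2 and 3 h.

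**Figure D1:**
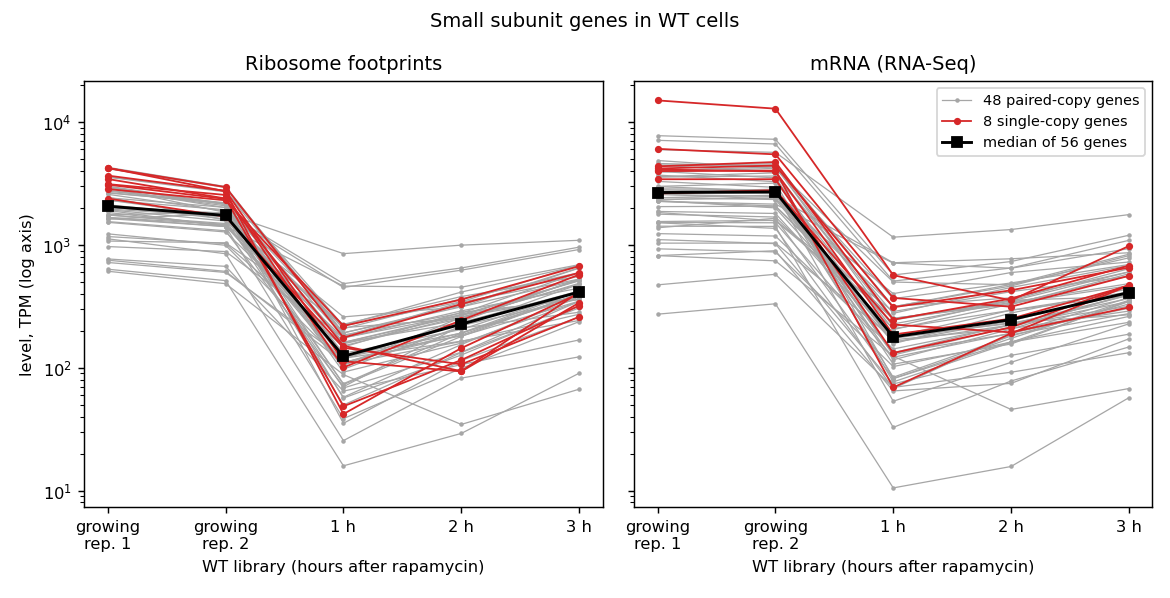
Levels of the 56 genes in TPM (log axis) in WT cells, with footprints on the left and mRNA on the right, in the 2 growing libraries and at 1, 2 and 3 h of rapamycin. Gray lines are paired copies, red lines the 8 single-copy genes and black squares the median, which for mRNA was 2669.6 and 2702 in growing cells and 178, 246 and 410 after rapamycin.

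The decline differed widely among members. RPS3 (YNL178W), which encodes a protein of the mRNA entry channel, fell most at 1 h. It had 3991 and 4024 TPM in growing cells and 69.1, 190 and 467 TPM at 1, 2 and 3 h, a log2 change of -6.91 at 1 h (SE 0.19, adjusted p = 2.97e-14). RPS22A (-6.74, SE 0.21) and RPS16B (-6.72, SE 0.19) came next at 1 h, and were also among the 3 lowest at 2 and 3 h. RPS31 became the lowest at 2 h, at -6.44 (SE 0.22), and stood at -5.00 (SE 0.20) at 3 h.

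At the other end, RPS23A (YGR118W), a copy of a protein near the decoding center, fell least at 1 h. It had 2263 and 2147 TPM in growing cells and 711, 646 and 933 TPM at 1, 2 and 3 h, a log2 change of -2.69 at 1 h (SE 0.15, adjusted p = 4.77e-11) and -2.41 at 3 h (SE 0.15). RPS30A (-2.88, SE 0.15) and RPS25A (-3.39, SE 0.16) were next at 1 h, and RPS28A followed RPS23A at 3 h (-2.66, SE 0.13). RPS25A had the highest mRNA level of any member at each time after rapamycin, with 1156, 1334 and 1764 TPM at 1, 2 and 3 h. The spread over the 56 genes, highest over lowest, was 55.0- and 38.8-fold in growing cells, 110-fold at 1 h, 84.9-fold at 2 h and 30.9-fold at 3 h.

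The 8 single-copy genes had lower medians than the paired copies. Their median log2 change was -5.38, -5.14 and -4.27 at 1, 2 and 3 h, and that of the 48 paired copies was -4.80, -4.37 and -3.68. Not every single-copy gene was low. RPS20 (-4.64) and RPS15 (-4.85) lay above the members' median of -4.87 at 1 h, and RPS15 (-4.46) above that of -4.49 at 2 h. RPS15 of the head fell least among the single-copy genes at 3 h (-3.88, SE 0.15), and RPS13 of the body was at -4.02 (SE 0.16). RPS3 (-4.27, SE 0.16), RPS2, its neighbor at the entry channel (-4.28, SE 0.17), and RPS20 of the head (-4.29, SE 0.15) could not be ordered within their errors. RPS12 (-4.53, SE 0.18) and RPS31 (-5.00, SE 0.20) were lowest. Genes of head proteins (median -3.75 at 3 h, 22 genes) and of body and platform proteins (-3.80, 34 genes) had similar medians.

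**Figure D2:**
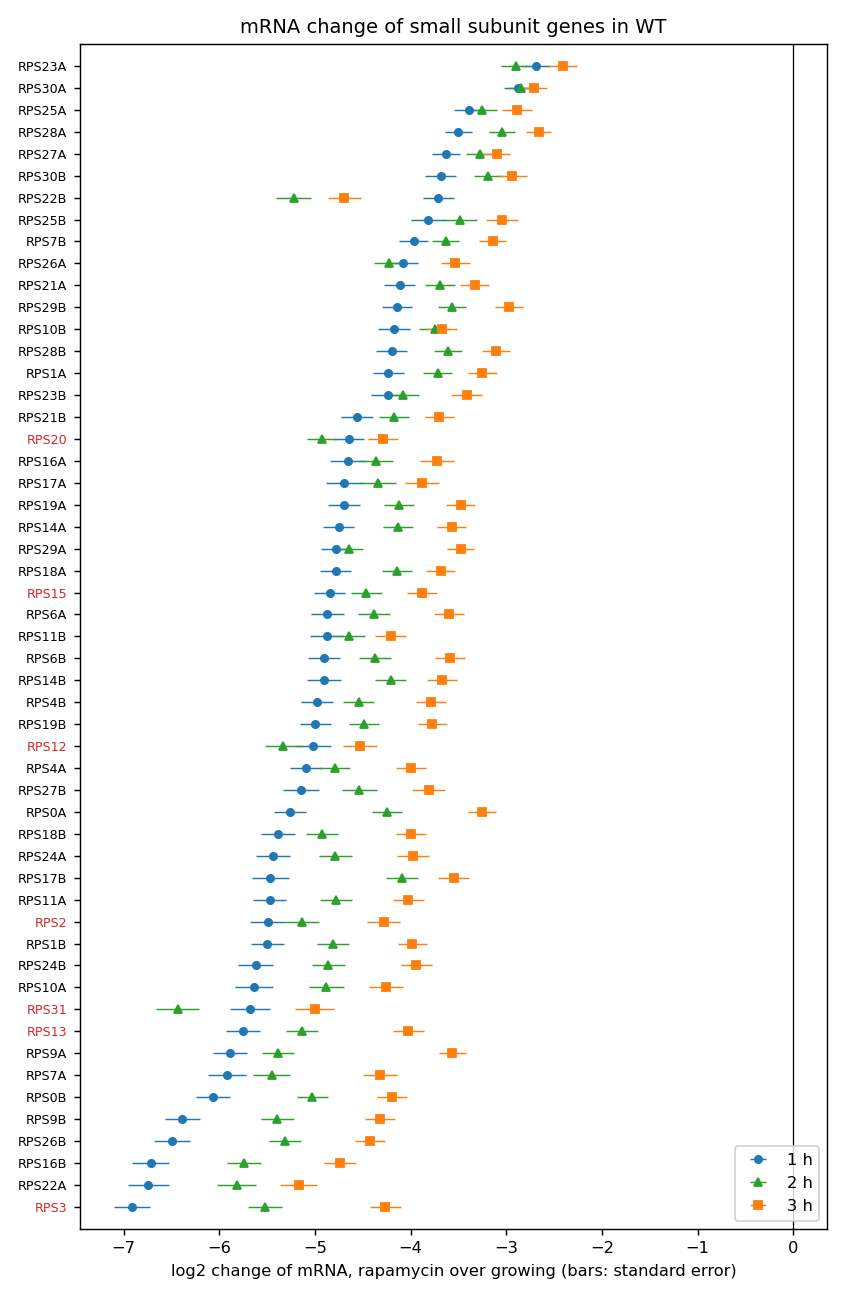
Log2 change of mRNA against growing WT cells at 1 h (blue), 2 h (green) and 3 h (orange) for 53 members, ordered by the value at 1 h; single-copy genes are in red and bars are standard errors. Values ran from -6.91 for RPS3 to -2.69 for RPS23A at 1 h, and RPS22B lay lower at 2 and 3 h than at 1 h.

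The return between 1 and 3 h was nearly general. 55 of 56 members were higher at 3 h than at 1 h, with a median log2 change of 1.18 (all genes, 0.01), and 32 were called higher and none lower, against 5.99% and 2.16% of all genes. Between 1 and 2 h, 5 were called higher and 1 lower, against 3.27% and 1.15% of all genes. RPS3 returned most, by 2.65 on the log2 scale at 3 h (SE 0.17, adjusted p = 8.75e-09), followed by RPS9A (2.33, SE 0.21) and RPS26B (2.06, SE 0.20). At 2 h RPS3 (1.39, SE 0.17), RPS17B (1.38, SE 0.19) and RPS26B (1.18, SE 0.20) led, and RPS0A and RPS0B were the other genes called higher. In the fit of all 10 WT libraries no member passed the threshold in either of these comparisons.

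RPS22B (YLR367W) was the exception. It encodes the same protein as RPS22A, and an intron of its transcript is known to be a target of the nuclease Rnt1. It had 818 and 741 TPM in growing cells, 124 at 1 h, 45.7 at 2 h and 67.7 at 3 h, so that it was lowest at 2 h while the median member was lowest at 1 h. From 1 to 2 h its log2 change was -1.51 (SE 0.19, adjusted p = 2.94e-05), and at 3 h it was still -0.98 relative to 1 h (SE 0.19, adjusted p = 0.00073). Its footprints followed the same course, with 610 and 484 TPM in growing cells and 87.9, 34.5 and 66.8 TPM at 1, 2 and 3 h. RPS31 and RPS12 were also lower at 2 h than at 1 h, by log2 values of -0.76 (SE 0.19, adjusted p = 0.0080) and -0.31 (SE 0.17, adjusted p = 0.21) that did not reach the threshold.

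Footprints declined and returned with the mRNA. The median member had 2065.1 and 1736.7 TPM of footprints in growing cells, 124 at 1 h, 226 at 2 h and 414 at 3 h. Median log2 changes were -4.47, -3.85 and -2.76 (all 5625 genes, 0.05, 0.04 and 0.04). At 1 h 49 members were called lower, against 5.92% of all genes. At 2 and 3 h no member and no other gene was called, a background of 0.0% in each case, although all 56 members had an unadjusted p under 0.05. The smallest adjusted p of a member was 0.023 at 2 h and 0.10 at 3 h, and DESeq2's Wald test called 55, 54 and 47 members lower at 1, 2 and 3 h. The share of all genes that DESeq2 called lower at these times is not reported here. The biological coefficient of variation was 0.323 in the footprint fit and 0.0705 in the mRNA fit.

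The members with the largest and smallest changes of footprints were in part those of the mRNA. At 1 h the lowest were RPS3 (log2 -6.89, SE 0.93), RPS22A (-6.60, SE 0.77) and RPS2 (-6.42, SE 0.88), and the highest RPS30A (-1.50, SE 0.50), RPS23A (-2.24, SE 0.59) and RPS30B (-2.39, SE 0.52). At 3 h they were RPS20 (-3.75, SE 0.68), RPS22A (-3.72, SE 0.65) and RPS2 (-3.69, SE 0.75), against RPS30A (-1.13, SE 0.49), RPS30B (-1.39, SE 0.49) and RPS28A (-1.42, SE 0.47). At 2 h RPS20 (-5.70, SE 0.77), RPS31 (-5.46, SE 0.76) and RPS2 (-5.25, SE 0.83) were lowest. Footprint levels of the 8 single-copy genes lay within 1.78-fold of each other in growing cells. After rapamycin they spanned 5.22-fold at 1 h, 3.85-fold at 2 h and 2.59-fold at 3 h. The mRNA levels of these genes spanned 8.21-, 2.24- and 3.16-fold at the same times. With copies summed, the 32 proteins then spanned 31.7-, 17.6- and 7.90-fold in footprints and 20.4-, 9.46- and 7.38-fold in mRNA. RPS2 had 3438 and 2387 footprint TPM in growing cells and 48.5, 115 and 320 TPM after rapamycin.

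Ribosome association, the change of footprints per mRNA against growing cells, rose with time in the members' medians. The median log2 value was 0.28 at 1 h, 0.64 at 2 h and 1.01 at 3 h, against -0.14, -0.12 and -0.05 over 5936 genes. It was above 0 for 47, 52 and 56 of 56 members, against 38.3%, 41.6% and 47.0% of all genes. No member was called in either direction at any time by edgeR or by DESeq2, and neither was any other gene by edgeR (background 0.0%). An unadjusted p under 0.05 was reached by 2, 7 and 21 members, and the smallest adjusted p of a member was 0.92, 0.90 and 0.51. Footprints per mRNA rose at each step from 1 to 3 h in 48 members, and in 29.3% of all genes.

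RPS30A shows the course of a gene near the top. Its log2 footprints per mRNA were -0.66 and -0.55 in growing cells and 0.59, 0.79 and 0.87 at 1, 2 and 3 h, so that every rapamycin library lay above both growing libraries. Its association was 1.20, 1.40 and 1.48 (SE 0.34 each). RPS31 had the highest value at 3 h, 1.67 (SE 0.56, adjusted p = 0.51), and began lowest, at -2.28 and -2.53 in growing cells. RPS30B (1.44, SE 0.36) followed at 3 h, and RPS28B (0.88 at 1 h and 1.24 at 2 h) and RPS29A (1.28 at 2 h) stood among the first 3 at earlier times.

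RPS2 and RPS20 took a later turn. RPS2 had log2 footprints per mRNA of -0.26 and -0.82 in growing cells, -1.59 at 1 h, -0.70 at 2 h and -0.01 at 3 h. RPS20 had 0.48 and -0.11 in growing cells, -0.65 at 1 h, -0.63 at 2 h and 0.65 at 3 h. Both were below their growing values at 1 h, and their association was -1.10 (SE 0.56) and -0.87 (SE 0.48) there. With RPS0A (-0.56, SE 0.57) they were the lowest 3 at 1 h and again at 2 h, and none of these values reached the threshold. At 3 h the lowest were RPS0A (0.22), RPS9A (0.29) and RPS1A (0.39).

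Growing replicate 2 had fewer footprints per mRNA on these genes than replicate 1, with medians of -0.70 and -0.36. At 3 h the median association was 1.20 against replicate 2 and 0.86 against replicate 1, and 54 members were above both, as were 33.5% of all genes. Among the 56 members, association at 3 h was higher for shorter coding sequences (Spearman's rho -0.64 across genes, and -0.52 across 5936 genes), and with a correction for coding length the medians were 0.07, 0.31 and 0.28. The part of coding length in these values was not tested apart from this correction.

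**Figure D3:**
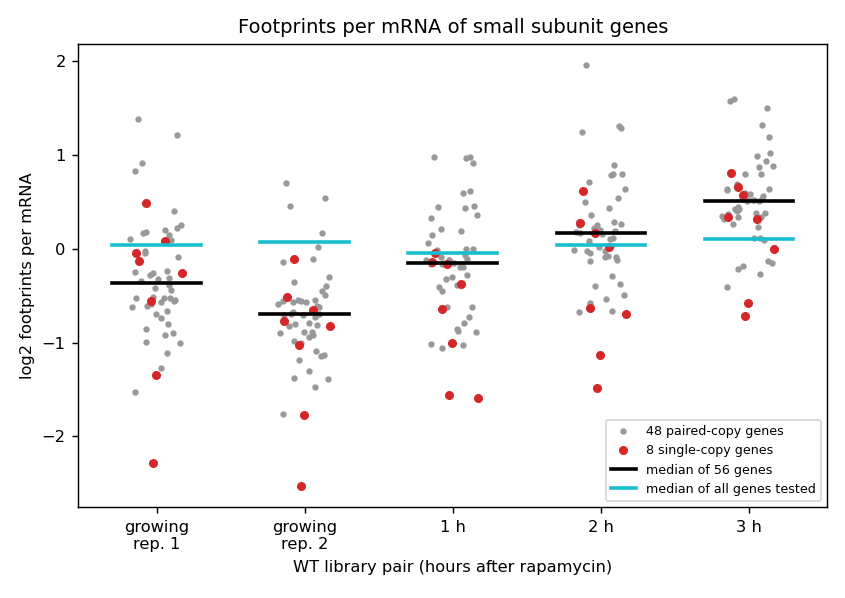
Log2 ratio of footprints to mRNA for each member in the 2 growing WT library pairs and at 1, 2 and 3 h of rapamycin, with single-copy genes in red. Black bars, the medians of 56 genes, were at -0.36, -0.70, -0.15, 0.16 and 0.51, and cyan bars, the medians of all genes tested, between -0.04 and 0.10.

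After rapamycin the members were lower in both fractions of both mutant strains. All 55 tested were called lower in total lysate at 3 h, with median log2 changes of -4.37 in rny1Δ atg2Δ and -4.08 in rny1Δ cells, against 23.9% and 22.9% of all genes called lower. In the vacuole fraction 55 of 55 were called lower in rny1Δ atg2Δ cells (median -4.58) and 54 of 55 in rny1Δ cells (median -3.14), against 23.0% and 17.4% of all genes. The exception in rny1Δ vacuoles was RPS30A at -0.84 (SE 0.12). RPS0B (-6.07 in rny1Δ atg2Δ and -5.74 in rny1Δ cells), RPS9A and RPS11A fell most in total lysate of both strains. RPS20 (YHL015W) was among the 3 members that fell least, at -2.88 in rny1Δ atg2Δ and -2.54 in rny1Δ cells, whereas in WT mRNA at 3 h it was at -4.29, among the 10 that fell most. The WT libraries were prepared and counted separately, so strain and experiment cannot be told apart here. In growing cells RPS20 already differed, with a mean of 955 CPM in WT and 1874 CPM in rny1Δ total lysate.

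The question put to the vacuole libraries was which mRNAs autophagy delivers there. Vacuolar enrichment was the log2 ratio of vacuole to total counts after rapamycin relative to the same ratio in growing cells. In rny1Δ cells 26 of 55 members were called enriched and none depleted, against 12.1% and 7.98% of 5753 genes, and their median was 0.96 (all genes, 0.08). In rny1Δ atg2Δ cells none was enriched and 1 was depleted, against 2.26% and 1.46% of all genes, and the median was -0.09. DESeq2 also called 0 enriched there, and 9 members had an unadjusted p under 0.05. The difference between the strains, rny1Δ atg2Δ minus rny1Δ, was called negative for 26 members and positive for none, against 9.26% and 8.03% of all genes, with a median of -1.05. The rny1Δ libraries enter both this difference and the enrichment in rny1Δ cells.

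Before rapamycin the members' log2 ratios of vacuole to total lay on both sides of 0. They were between -0.52 and 0.47 in growing rny1Δ atg2Δ cells (median -0.01) and between -0.54 and 0.65 in growing rny1Δ cells (median 0.03), from 1 library per fraction and strain. After rapamycin it was -0.09 and -0.20 in the 2 replicates of rny1Δ atg2Δ and 1.02 and 1.08 in those of rny1Δ. Both rny1Δ replicates were above both rny1Δ atg2Δ replicates for all 55 members, as for 39.9% of all genes. The ratio after rapamycin taken alone was called positive for 32 members and negative for none in rny1Δ cells, against 11.2% and 7.11% of all genes. In rny1Δ atg2Δ cells it was positive for none and negative for 1, RPS20, against 1.81% and 1.48% of all genes.

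RPS23A was the most enriched, at 2.03 (SE 0.17, adjusted p = 2.47e-07) in rny1Δ cells (chrVII:726974-727730). After rapamycin it had 652 and 625 TPM in rny1Δ vacuoles, against 202 and 178 TPM in total lysate. In growing rny1Δ cells it had 1419 TPM in vacuoles, against 1848 TPM in total lysate. In rny1Δ atg2Δ cells after rapamycin the vacuole values, 184 and 224 TPM, overlapped those of total lysate, 192 and 202 TPM.

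RPS28B (YLR264W), whose protein is known to control the decay of its own mRNA, was second, at 1.91 (SE 0.18, adjusted p = 6.79e-07). It had 586 and 519 TPM in rny1Δ vacuoles after rapamycin, against 89.1 and 89.8 TPM in total lysate, and its values in rny1Δ atg2Δ vacuoles, 50.5 and 36.0 TPM, lay on both sides of those in total lysate, 43.0 and 49.7 TPM. It showed the largest difference between the strains, -2.14 (SE 0.28, adjusted p = 0.00013). The value of 36.0 TPM rests on 3 counts in the shallow library. RPS25A followed, with an enrichment of 1.89 (SE 0.17) and a difference of -1.97 (SE 0.25), and RPS27A had a difference of -1.94 (SE 0.28).

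RPS3, RPS12 and RPS20 were not enriched. Their values in rny1Δ cells were -0.22 (SE 0.21), -0.11 (SE 0.19) and -0.24 (SE 0.22), with adjusted p of 0.41, 0.66 and 0.38. RPS20 had 1004 and 973 TPM in rny1Δ vacuoles after rapamycin, against 1034 and 982 TPM in total lysate. In rny1Δ atg2Δ cells it had 302 and 488 TPM in vacuoles, against 843 and 914 TPM in total lysate, and was the member called depleted there (-1.50, SE 0.24, adjusted p = 0.00042). RPS12 was at -0.94 (SE 0.19, adjusted p = 0.0035) and RPS11B at -0.77 (SE 0.22, adjusted p = 0.026) in that strain. RPS20 was therefore among the 26 members with a negative difference between the strains (-1.26, SE 0.32, adjusted p = 0.0072) while its ratio in rny1Δ vacuoles was near 0.

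The other single-copy genes were higher. RPS13 (1.24, SE 0.20) and RPS15 (1.15, SE 0.19) were called enriched in rny1Δ cells, and RPS31 (0.90, SE 0.22) and RPS2 (0.84, SE 0.23) lay under the threshold. The 8 single-copy genes had 3 enriched and a median of 0.87, and the 47 paired copies tested had 23 and 0.99. For these groups and those that follow, the share of all genes enriched was 12.1%. Genes of head proteins had 12 of 22 enriched (median 1.16), although RPS3, RPS12 and RPS20 are head proteins, and those of body and platform proteins 14 of 33 (median 0.89). Genes with an intron had 20 of 36 enriched (median 1.08), and those without 6 of 19 (median 0.84). Of the 55 members, 51 had an enrichment above 0 in both replicates, as did 48.5% of all genes.

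**Figure D4:**
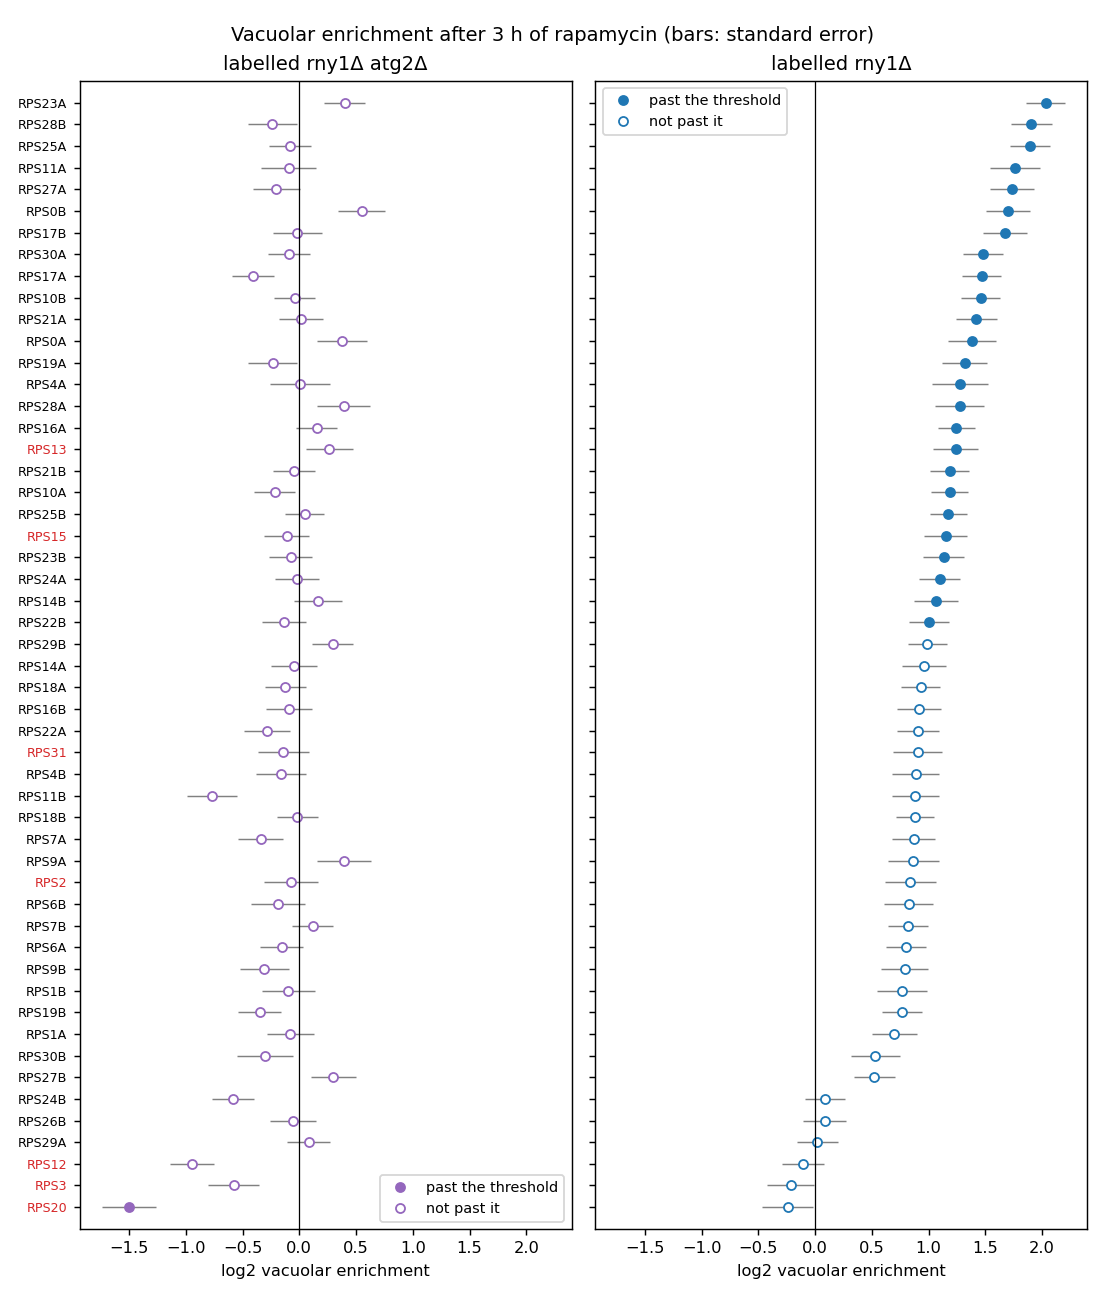
Log2 vacuolar enrichment after 3 h of rapamycin for 52 members, in cells labelled rny1Δ atg2Δ on the left and rny1Δ on the right, ordered by the value in rny1Δ; filled points passed the threshold, bars are standard errors and single-copy genes are in red. Values in rny1Δ ran from -0.24 for RPS20 to 2.03 for RPS23A, with 25 filled points, and in rny1Δ atg2Δ RPS20 alone was past the threshold.

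The number of members called changed with a coding length correction and with the libraries used. The correction, fitted on all genes, left 6 members enriched in rny1Δ cells (10.9%, median 0.35) and 4 with a negative difference between the strains (7.27%). Without the correction these calls covered 12.1% and 9.26% of all genes. Shares of all genes under the correction and in the fits that follow are not reported here. Without replicate 2 of rny1Δ 17 members were enriched. The difference was called for 16 members without replicate 2 of rny1Δ atg2Δ, which holds the shallow library, and for 3 without replicate 1. Across the 55 members the enrichment was little related to coding length (rho -0.20) or to the change in total lysate (rho -0.08), and across 5753 genes the rho values were -0.48 and -0.50.

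The copies of a pair did not change alike. In the 24 pairs the log2 ratio of copy A to copy B counts ranged by 0.05 to 3.05 over the 5 WT RNA-Seq libraries, with a median range of 0.85 and 11 pairs at 1 or more. The 2 growing libraries differed by at most 0.45 in any pair, the value of RPS7. RPS22 had the widest range. RPS22A was at 2.45 and 2.40 above RPS22B in growing cells, below it at 1 h (-0.60) and above it again at 2 h (1.83) and 3 h (1.95), and in footprints the ratio was 2.13 and 2.17 in growing cells and -1.31, 1.72 and 1.95 after rapamycin. For RPS26, a protein at the mRNA exit channel, the ratio moved the other way, with 1.46 and 1.57 in growing cells and 3.92, 2.60 and 2.41 at 1, 2 and 3 h. For RPS7 it was 2.80 and 2.35 in growing cells and 0.63, 0.76 and 1.41 after rapamycin, so that the minor copy RPS7B took a larger share of the WT counts. In growing total lysate the RPS7 ratio was 0.98 in rny1Δ and 0.83 in rny1Δ atg2Δ cells, so its level in growing cells differed between the 2 sets of counts.

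**Figure D5:**
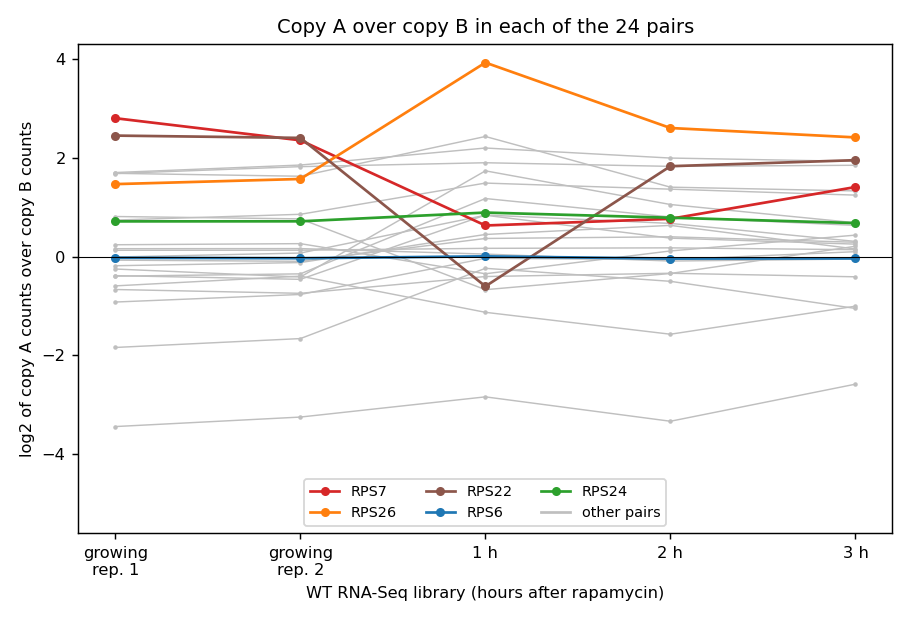
Log2 ratio of copy A to copy B counts in each of the 24 pairs over the 5 WT RNA-Seq libraries. The 3 pairs with the widest range (RPS22, RPS26 and RPS7) and RPS6 and RPS24, among the narrowest, are colored; RPS22 was at 2.45 and 2.40 in growing cells and at -0.60 at 1 h.

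Among the narrowest ranges were those of RPS6 (0.05), whose protein is phosphorylated downstream of TORC1, and RPS24 (0.21). Copies of a pair share much of their sequence, and counts of some pairs differed between the 2 sets of files. The pair RPS6 had 4.37 times as many CPM in growing WT as in growing rny1Δ total lysate, RPS4 3.15 times and RPS24 2.7 times. The 8 single-copy genes had 0.510 to 1.30 times. RPS26 had 3.20 times, but its copy A had no count in the total and vacuole libraries. RPS26B had 1420 and 1414 TPM in growing WT and 1763 TPM in growing rny1Δ total lysate. Reads with several alignments were left out of the total and vacuole counts, where they were 29.4% to 60.8% of the alignments listed. How the WT counts treated them is not given in the sources used here, so the level of each copy is uncertain in these pairs and in others such as RPS30. The log2 ratio of RPS30A to RPS30B in growing cells was -0.01 and 0.07 in WT and 2.52 in rny1Δ total lysate.

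Vacuolar enrichment of the copies was compared as values. In rny1Δ cells both copies were enriched in 7 pairs and 1 copy in 9, where 12.1% of all genes were enriched. The median difference between copies was 0.32 on the log2 scale, whichever was higher. RPS27 differed most. RPS27A had an enrichment of 1.74 (SE 0.19), with 367 and 345 TPM in vacuoles after rapamycin against 103 and 86.3 in total lysate, and RPS27B one of 0.52 (SE 0.18), with 209 and 182 TPM in vacuoles against 96.5 and 86.3 in total lysate. RPS24A was at 1.10 (SE 0.18) and RPS24B at 0.08 (SE 0.18). For RPS29, a zinc-binding protein of the head, copy B was higher, 0.99 (SE 0.17), and copy A lay at 0.02 (SE 0.18). The log2 ratio of vacuole to total of copy A was 0.65 in growing cells. There copy A had 1195 TPM in vacuoles against 766 in total lysate, and copy B 1345 against 1570, from 1 library each. After rapamycin copy A had 197 and 176 TPM in vacuoles against 109 and 111 in total lysate. Copy B then had 361 and 331 TPM against 202 and 178. No test between copies was run. With the counts of both copies summed, 15 of 32 genes or pairs were enriched in rny1Δ cells (46.9%) and 17 had a negative difference between the strains (53.1%). In the main fit, without summing, 12.1% and 9.26% of all genes were so called.

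Of 80 genes of the large subunit tested, 26 were enriched and 1 depleted in rny1Δ cells (32.5% and 1.25%, against 12.1% and 7.98% of all genes, median 0.83), running from RPL33B at 1.98 (SE 0.23) to RPL3 at -1.27 (SE 0.22). All 81 were called lower in WT mRNA at 3 h, as were 15.9% of all genes (median -3.73), running from RPL9A at -5.75 to RPL15B at -2.14, and their median ribosome association at 3 h was 1.01. ASC1 and STM1, which encode proteins bound to the small subunit, were lower in WT mRNA at 3 h (-5.92, SE 0.20, and -2.82, SE 0.14) and were not called enriched (0.71, SE 0.23, and 0.36, SE 0.20).

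Genes that build or control the small subunit were counted in the same comparisons. Of 16 factors for its maturation, 11 were called lower in WT mRNA at 3 h (68.8%, against 15.9% of all genes, median -1.32), from DIM1 at -1.74 (SE 0.13), an rRNA methyltransferase, to the kinase gene HRR25 at 0.33 (SE 0.11). In rny1Δ vacuoles 3 of them were enriched and 3 depleted (18.8% each, against 12.1% and 7.98% of all genes, median -0.06). TSR2, the chaperone of the RPS26 protein, was highest at 1.16 (SE 0.27, adjusted p = 0.0020), and RIO1, a kinase of late maturation, lowest at -1.47 (SE 0.18, adjusted p = 8.49e-06). Of 9 regulators of ribosomal protein genes, 1 was higher and 1 lower in WT mRNA at 3 h, 11.1% each, near the 11.7% and 15.9% of all genes. YAK1, a kinase that opposes their transcription, was at 1.42 (SE 0.11) and HMO1, an architectural protein of their promoters, at -1.08 (SE 0.12). None of the 9 was enriched in rny1Δ vacuoles and 2 were depleted, YAK1 at -1.91 (SE 0.23) and SCH9, a kinase activated by TORC1, at -2.90 (SE 0.19), with HMO1 highest at 0.21 (SE 0.17). In rny1Δ atg2Δ cells SCH9 was also called depleted, at -1.92 (SE 0.19, adjusted p = 2.41e-06), while YAK1 was at -0.33 (SE 0.23) and HMO1 at -0.97 (SE 0.18), neither past the threshold.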

How the data were processed

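The deposited files hold counts per gene, not normalized, made by the authors: reads aligned with TopHat2 (2.0.9) and counted with HTSeq (0.6.1) for total and vacuole RNA, and reads aligned with STAR (2.7.0a) and, for footprints, freed of PCR duplicates, for WT. The build named in the submitters' processing notes is sacCer3. The deposited WT files also give a codon number per gene (unit: other), 30 nt short of the annotated coding length for 5673 of 6005 protein-coding genes. TPM used this length in WT and this length plus 30 nt in the total and vacuole libraries. Symbols, introns and coordinates came from the RefSeq annotation of the R64 assembly, which matched 6008 of 6696 IDs. The HTSeq rows that name no gene were left out; they held 18.2% to 32.5% of alignments without a feature, 0.410% to 0.654% ambiguous and 29.4% to 60.8% not unique.

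Tests covered protein-coding genes whose counts added up to 10 or more in a fit, and were run with edgeR 4.0.16 (quasi-likelihood, TMM, Benjamini-Hochberg over all genes tested) in R 4.3.3. There were 4 fits: 12 total and vacuole libraries (8 groups, 4 residual degrees of freedom), 5 WT RNA-Seq and 5 WT footprint libraries (1 each), and all 10 WT libraries (2). Groups with 1 library were taken to vary as the replicated ones. The authors call the replicates independent biological replicates; p-values measure the spread between these libraries, and intervals from counts cover counting error only. Vacuolar enrichment and ribosome association were interaction terms. Per-library values used a prior count of 2.

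Growing WT footprints and mRNA of 1 number came from the same lysate, and their deviations from the group mean correlated by 0.10 across genes. Total and vacuole libraries of 1 number are not stated to share a culture (0.19 in rny1Δ, 0.05 in rny1Δ atg2Δ). Alternatives were DESeq2 1.42.0, other size factors and filters, a coding length correction, summed copies, a replicate block, other reference libraries and leaving out replicates. The scripts were tested on simulated data with 200 changed genes. At a log2 change of 2, 199 or 200 of them were recovered in the vacuole, total lysate and mRNA comparisons simulated. At 3 h only 49 were recovered for footprints and 65 for ribosome association. For footprints 200 were recovered at a log2 change of 4. The members, the comparison lists and the tests were chosen with earlier results of these data known. Named are the 3 highest and 3 lowest members of each comparison, the single-copy genes in the WT time course and in vacuolar enrichment, the pairs with the 3 widest and 3 narrowest ranges and the 3 largest differences of enrichment, the highest and lowest gene of each list, and RNY1 and ATG2; some of these members are not reported here by name. RPS22B, RPS2, RPS20 and RPS25A in further comparisons, RPS0A and RPS0B at 2 h and RPS4 were named after their values were seen.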

Additional observations from a re-analysis of the deposited data

Results flagged for a closer look

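The vacuolar enrichment of 26 small subunit genes was lower in cells labelled rny1Δ atg2Δ than in those labelled rny1Δ by the interaction test of strain, fraction and rapamycin in edgeR, at a log2 difference of at least 1 and an adjusted p under 0.01, against 9.26% of all genes. RPS28B had the largest such difference and RPS29A alone a positive value, 0.06 (SE 0.26, adjusted p = 0.88). The count was 16 without replicate 2 of rny1Δ atg2Δ, which holds the shallow vacuole library, 3 without replicate 1 and 4 with a coding length correction, and the cause was not tested.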

How the results depend on the processing

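Of 179 alternative values of the share of members called, over 20 comparisons, 156 stayed within 1.5 times the main share, and the median of the members kept its sign in all 20. The 23 others were as follows. Shares of all genes under the alternatives are not reported here. With the coding length correction 10.9% of members were enriched in rny1Δ cells, 7.27% had a negative difference between strains, 14.5% had a positive ratio of vacuole to total, 0% were lower in footprints at 1 h and 0% in growing footprints per mRNA. With at least 10 counts in every library the difference was called for 73.8% of 42 members, footprints at 2 and 3 h for 91.1% and 32.1%, and growing footprints per mRNA for 1.79%. Without a filter, footprints were called for 91.1% and 12.5% at 2 and 3 h. With copies summed these were 87.5% and 6.25%, and with DESeq2's Wald test 96.4% and 83.9%, and 12.5% for growing footprints per mRNA (1.79% with DESeq2 size factors alone). In the fit of all 10 WT libraries 0% were called in mRNA at 3 h and 0% in the change from 1 h to 2 or 3 h. The cause was not tested.

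Leaving out a replicate gave 30.9% to 47.3% enriched in rny1Δ cells and 5.45% to 43.6% with a negative difference between strains. Leaving out a growing WT replicate gave no test; median ribosome association at 3 h was then 0.80 to 1.13. The replicate block, by lysate in WT and by number within strain elsewhere, gave 47.3% enriched and 50.9% with a negative difference, and 3 in place of 2 members lower in growing footprints per mRNA, and changed no other count.

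Of 1426 alternative values of named members, 22 changed sign, all of members not past the threshold. For RPS12 enrichment in rny1Δ was 0.037 with at least 10 counts in every library, and its ratio of vacuole to total after rapamycin was -0.059 with both DESeq2 settings, -0.010 with copies summed, -0.61 with the length correction and -0.16 to 0.020 without a replicate. The ratio of RPS3 was 5.3e-05 without a filter, 0.12 with at least 10 counts and 0.0031 with the replicate block, and that of RPS20 was 0.0034 with at least 10 counts. Without a replicate, RPS9A enrichment in rny1Δ atg2Δ was -0.73 to 0.50 and the strain difference of RPS29A was -0.48 to 0.29. The difference of RPS29A was -0.70 with growing libraries of both strains as reference, and with the length correction that of RPS26B was 0.56 and that of RPS27B 0.34. Without a growing replicate, association at 2 h was -0.62 to 0.33 for RPS0A and -0.49 to 0.067 for RPS2, and at 3 h -0.084 to 0.59 for RPS9A and -0.26 to 0.69 for RPS0A. With the length correction RPS9A was at -0.17 and RPS0A at -0.083.

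The comparisons rest on 1 library per time point in WT and 1 growing library per strain and fraction, and the footprint fits have 1 residual degree of freedom. In vacuole replicate 2 of rny1Δ atg2Δ the median member had 19 counts, so that single values there carry large counting error. Counts of nearly identical copies are uncertain, and differences between the 2 sets of files in how such reads were counted were not tested.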

Other observations

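Of the single-copy genes, RPS20 and RPS12 fell least in total lysate at 3 h of rapamycin, with log2 changes of -2.88 (SE 0.15) and -3.38 (SE 0.13) in rny1Δ atg2Δ cells and of -2.54 (SE 0.15) and -3.06 (SE 0.13) in rny1Δ cells. In WT mRNA at 3 h their values were -4.29 (SE 0.15) and -4.53 (SE 0.18), and the median member was at -3.78. The WT libraries were prepared and counted separately, so strain and experiment cannot be told apart in this contrast. In growing cells RPS20 had a mean of 955 CPM in WT and 1874 CPM in rny1Δ total lysate, and RPS12 had 2432 and 2192 CPM.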
